A study of Mus musculus with 6 samples.

Results

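Integrins are cell surface receptors made of an alpha and a beta chain, which hold cells to the extracellular matrix and to each other and pass signals across the membrane. Most alpha chains of the heart pair with beta 1, whereas the alpha v chain also pairs with beta 3 and beta 5. In the embryonic heart, integrin alpha 4 beta 1 of the epicardium, the outer cell layer, binds fibronectin and VCAM-1, and mice that lack alpha 4 lose the epicardium. The genes described here are 10 integrins: Itga4, Itga5, Itga6, Itga7, Itga8, Itga9, Itgav, Itgb1, Itgb3 and Itgb5. They are 10 of 18193 genes with a probe set (the group of oligonucleotides that measures a transcript on the array), and were taken by name with every probe set annotated to that gene alone, 34 in all. The 10 were chosen by a rule that names levels by genotype and by the letters described below, with earlier results of the same arrays known. Values of either contrast are therefore given as a description, and nothing is supported with them.

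Total RNA of mouse hearts of the strain C57B6 was hybridised to 6 Affymetrix arrays, 3 from EphB4 Mutant hearts and 3 from wild-type hearts. The product of Ephb4 is a receptor of endothelial cells, a tyrosine kinase that binds ephrin-B2. The sources used here give no age, no sex, no kind of mutation and no Cre or promoter behind it. Sample descriptions begin with the letters eM for mutant 3 and wild-type 3 and with eI for mutants 1 and 2 and wild types 1 and 2. The meaning of the letters is unstated. Sample titles number each array as 1 heart, and do not say whether RNA of several animals was pooled.

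Levels are log2 intensities, so a difference of 1 is a doubling. A probe set's level cannot be set against that of another probe set, and each gene is compared only with itself across hearts. In bulk tissue, fewer cells of a type and less RNA per cell cannot be told apart.

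The eM hearts stood apart from the eI hearts over all probe sets, with 52.6 (mutant 3) and 34.1 (wild-type 3) on the first principal component, which held 60.4% of the variance, against -24.3 to -17.9 in the eI hearts. For the beta-actin controls, the 3′ probe set exceeded the 5′ one by 0.77 and 0.51 in eM hearts, against 0.28 to 0.41 in eI hearts. The mean of the small subunit rRNA control probe sets was 10.89 and 11.53 in eM hearts, against 9.70 to 10.11 in eI hearts. Xist, expressed from the inactive X chromosome of females, was low in mutants 1 and 3 (6.73 and 6.78) and 11.51 or more elsewhere. Ephb4 itself read 8.04 ± 0.11 in mutant and 8.03 ± 0.18 in wild-type hearts (SD, n = 3 each). The heart muscle markers Tnnt2, Myh6, Myh7, Actc1, Myl2, Nppa and Ttn averaged 13.83 to 14.18 in the 6 hearts, near the top of the scale (14.79).

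Between eM and eI hearts the integrins moved in different directions. Itga4 read 3.59-fold higher in eM hearts, while Itga8, Itgb1 and Itgb5 read lower (0.477-fold, 0.610-fold and 0.601-fold). At their brightest probe sets, Itga5, Itga7, Itgav and Itgb3 differed by no more than 0.14 log2 in either direction. Itga6 and Itga9 gave different answers at different probe sets. The plot of levels shows all 6 hearts for each gene at its brightest probe set.

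**Figure D1:**
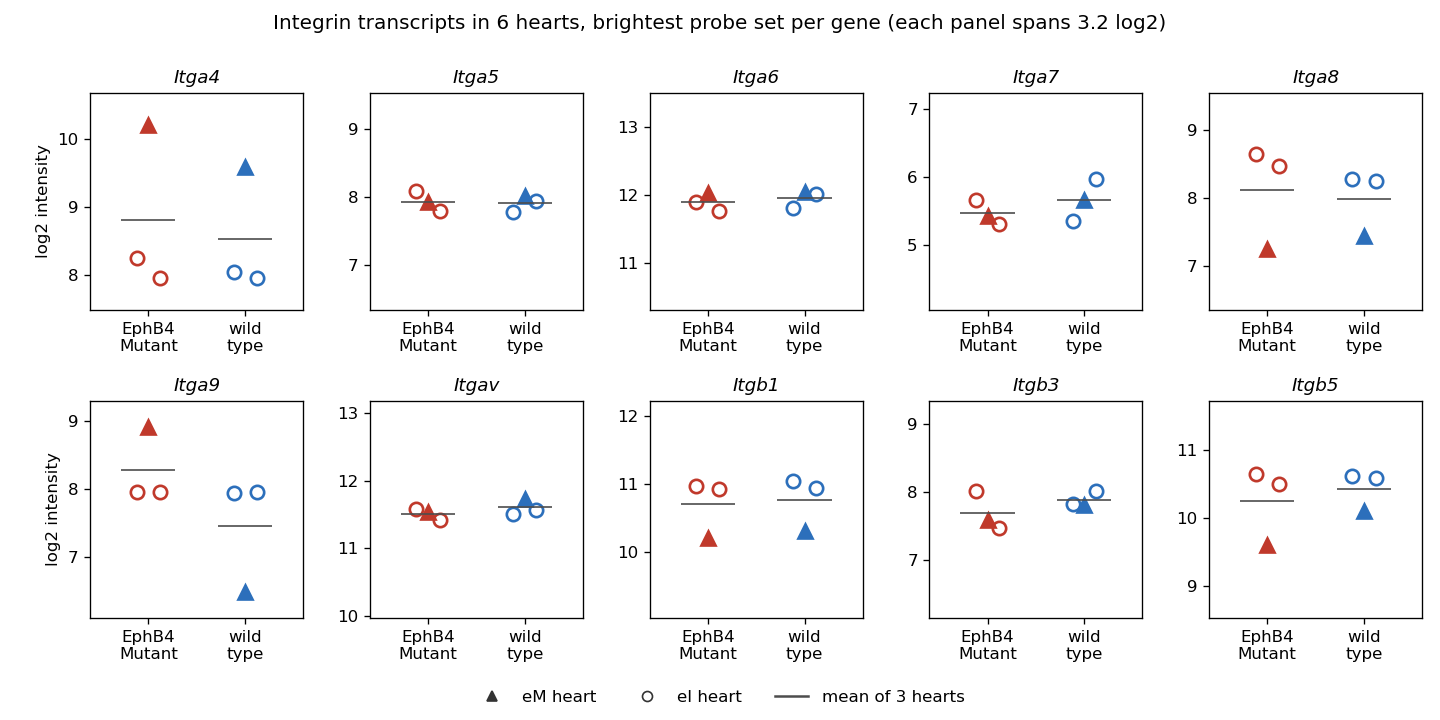
Log2 intensity of the brightest probe set of each of the 10 integrins in EphB4 Mutant (left) and wild-type (right) hearts; triangles are eM hearts, open circles eI hearts, lines the mean of 3 hearts, and every panel spans 3.2 log2. Both eM hearts lie above all eI hearts for Itga4 and below them for Itga8, Itgb1 and Itgb5, and the eM hearts of Itga9 lie at 8.91 and 6.48 on either side of the eI hearts.

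Itga4 encodes the alpha 4 chain, which pairs with beta 1 or beta 7. Its brightest probe set read 10.21 in mutant 3 and 9.59 in wild-type 3, the eM hearts. In the eI hearts it read 8.25 and 7.96 (mutants 1 and 2) and 8.05 and 7.96 (wild types 1 and 2). Every eM heart lay above every eI heart, with a gap of more than 1 log2, whereas the eI hearts lay close together (8.06 ± 0.14, SD, n = 4). The fitted difference, eM minus eI, was 1.84 log2 (95% confidence interval 1.48 to 2.20, limma with genotype in the fit), and it was 2.10 among mutant and 1.59 among wild-type hearts. Ranked by absolute difference, Itga4 stood at percentile 99.7 of all genes tested.

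The other probe sets of Itga4 did not all move alike. The second brightest read 6.83 and 6.29 in the eM hearts, against 5.39 to 5.93 in the eI hearts, a difference of 0.88. The third brightest, dim enough to be left out of the tests, read 6.24 and 6.55 against 4.14 to 4.65, a difference of 2.03. These 3 probe sets had no overlap between eM and eI hearts. The remaining pair, dim at means of 4.39 and 3.10 in eM hearts and 4.13 and 3.11 in eI hearts, differed by 0.27 and -0.01 with overlap. The filter on dim probe sets left out 3 of the 5 Itga4 probe sets.

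Itga8 encodes the alpha 8 chain, the receptor with beta 1 for nephronectin. It read 7.25 and 7.44 in mutant 3 and wild-type 3, against 8.65 and 8.48 in eI mutants and 8.27 and 8.25 in eI wild types. Both eM hearts lay below all eI hearts. The difference was -1.07 log2 (95% confidence interval -1.38 to -0.75), with -1.31 among mutant and -0.83 among wild-type hearts. A second, dim probe set differed by -0.71, also without overlap.

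Itgb1 encodes beta 1, the common partner of the alpha 4 to alpha 9 chains. It read 10.20 and 10.31 in the eM hearts (mutant 3 and wild-type 3), against 10.97 and 10.92 in eI mutants and 11.04 and 10.94 in eI wild types. The eI hearts spread little (SD 0.05, n = 4), and both eM hearts lay below them. The difference was -0.71 (95% confidence interval -0.91 to -0.52), with -0.74 among mutant and -0.69 among wild-type hearts. The other tested probe sets of Itgb1 gave -0.42 and -0.56, both without overlap, so the sign was the same at all 3. Among its 3 dim probe sets, the differences were -0.30 without overlap, and -0.12 and -0.01 with overlap.

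Itgb5 encodes beta 5, which pairs with alpha v as a receptor for vitronectin. It read 9.60 and 10.10 in the eM hearts (mutant 3 and wild-type 3), against 10.65 and 10.50 in eI mutants and 10.62 and 10.58 in eI wild types. Again both eM hearts lay below all eI hearts, mutant 3 farther than wild-type 3. The difference was -0.73 (95% confidence interval -1.04 to -0.43), with -0.97 among mutant and -0.50 among wild-type hearts. All 4 probe sets of Itgb5 passed the filter and gave -0.73 to -0.82, each without overlap. Its alpha partner Itgav differed by 0.12 with overlap: 11.54 and 11.73 in eM hearts, against 11.42 to 11.57 in eI hearts.

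**Figure D2:**
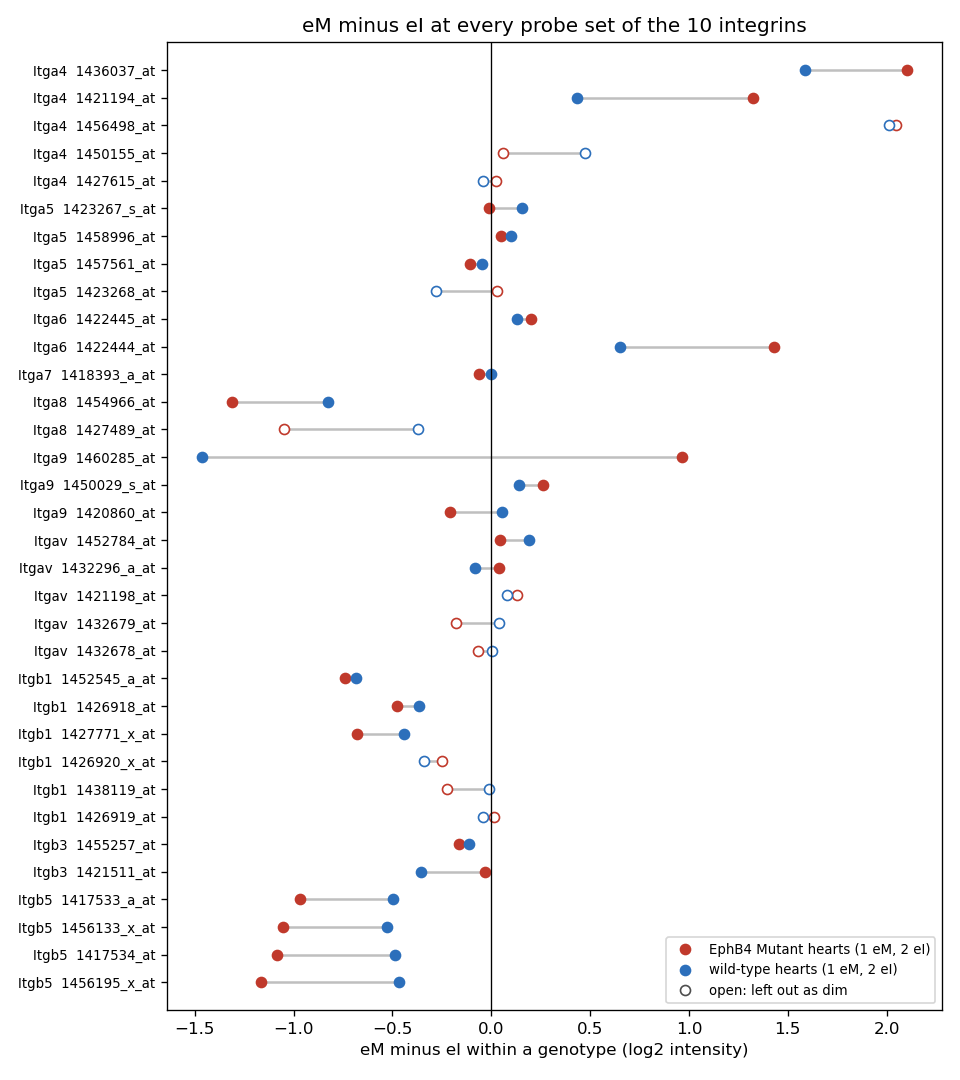
Difference eM minus eI in log2 intensity at each of the 34 probe sets, computed within EphB4 Mutant hearts (red, 1 eM heart against 2 eI hearts) and within wild-type hearts (blue, likewise); open points are probe sets left out as dim. All 4 Itgb5 probe sets and the 3 brighter Itgb1 probe sets lie below 0 in both genotypes, 4 of the 5 Itga4 probe sets lie above 0 in both, and the brightest Itga9 probe set lies at 0.97 in mutant and -1.46 in wild-type hearts.

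Itga6 encodes the alpha 6 chain, a laminin receptor with beta 1 or beta 4, and its probe sets differed in size. The brighter read 12.03 and 12.04 in the eM hearts, against 11.76 to 12.01 in the eI hearts, a difference of 0.17 (95% confidence interval -0.07 to 0.40). The dimmer read 10.37 and 10.32 in the eM hearts, against 9.01 and 8.87 in eI mutants and 9.54 and 9.81 in eI wild types, a difference of 1.04. Neither probe set had overlap between eM and eI hearts.

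Itga9 encodes the alpha 9 chain, which with beta 1 binds tenascin-C and is needed for lymphatic valves. Its brightest probe set read 8.91 in mutant 3 and 6.48 in wild-type 3. The eI hearts read 7.94 and 7.95 (mutants) and 7.93 and 7.94 (wild types). The eM hearts thus lay on either side of eI hearts that spread by an SD of 0.01 (n = 4). The mutant minus wild-type difference was 2.44 within eM, where it rests on 1 heart per genotype, and 0.01 within eI. An interaction term in limma gave 2.43 log2 for the change between them (adjusted p = 0.31 over all genes tested), and called 0 of 13572 genes (966 at an unadjusted p of 0.05). The other Itga9 probe sets, both tested, read 6.85 and 5.99 in mutant 3, against 6.52 and 6.10 in wild-type 3, so neither showed the spread between the eM hearts.

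Itga5, the alpha 5 chain of the main fibronectin receptor, read 7.92 and 8.02 in eM hearts, against 7.78 to 8.08 in eI hearts. Itga7, the laminin receptor chain of muscle, has 1 probe set here, which lay near the filter's limit of 5.38; it read 5.42 and 5.66 in eM hearts, against 5.30 to 5.98 in eI hearts. Itgb3, the beta 3 chain of platelets and vessels, read 7.59 and 7.81 in eM hearts, against 7.48 to 8.02 in eI hearts. The second Itgb3 probe set read 6.03 and 6.05 in eM hearts, against 6.02 to 6.57 in eI hearts, a difference of -0.19 with overlap. At their brightest probe sets all 3 genes overlapped between the letters, and the 95% confidence intervals of the difference were -0.21 to 0.36, -0.50 to 0.44 and -0.52 to 0.25.

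In the limma fit over all genes, 1 of the 10 integrins passed an adjusted p of 0.05 as higher (Itga4) and 3 as lower in eM hearts (Itga8, Itgb1 and Itgb5). Of 13572 genes tested, 4.47% were called higher and 5.82% lower, 10.3% in all. By overlap, 2 integrins lay higher without overlap in eM hearts, where 20.8% of all genes did, and 3 lower, where 23.8% did (44.6% in either direction). Of the 23 tested integrin probe sets, 4 lay higher and 8 lower without overlap, where 22.8% and 20.3% of all tested probe sets did (43.1% in either direction, and 11.7% called). The list was drawn up with this contrast known, so nothing is read from the counts. Its median difference was -0.08, and that of all genes -0.03. Since both eM hearts are numbered 3, a replicate block cannot be separated from the letters. With the replicate numbers in the fit, number 3 was set against the mean of numbers 1 and 2, the same comparison of eM with eI. That fit called 575 genes in place of 1397, with 1 integrin higher and 3 lower. Without mutant 2 the count was 2 genes (2310067E19Rik and Kcnq1ot1) and without mutant 3 it was 0, and neither held an integrin. Without mutant 1 it was 158, among them Itga4 and Itga8 but neither Itgb1 nor Itgb5. Without wild-type 3, which leaves mutant 3 as the single eM heart, it was 790, with 2 integrins higher and 3 lower. The second was Itga9, whose difference was then 0.97 (limma adjusted p = 0.028), against -0.25 with all hearts; a lone heart is assumed there to vary like the others. With the Xist level as a covariate 183 genes were called, with 1 integrin higher (Itga4) and 1 lower (Itga8).

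Stretches of 250 bases before the transcription start are shown for the 4 integrins that differed most with the letters at their brightest probe set, so that the start regions of genes that read higher and lower can be seen side by side. They are RefSeq's, in GRCm38.p6, 5′ to 3′ on the gene's strand, and capitals mark the GC box GGGCGG on either strand.
Itga4, chr2:79255176-79255425, plus strand: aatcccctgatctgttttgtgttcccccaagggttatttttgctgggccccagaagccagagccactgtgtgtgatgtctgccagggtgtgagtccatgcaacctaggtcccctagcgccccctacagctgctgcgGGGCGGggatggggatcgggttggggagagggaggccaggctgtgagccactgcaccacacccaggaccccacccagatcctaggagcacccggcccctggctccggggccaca
Itga8, chr2:12301945-12302194, minus strand: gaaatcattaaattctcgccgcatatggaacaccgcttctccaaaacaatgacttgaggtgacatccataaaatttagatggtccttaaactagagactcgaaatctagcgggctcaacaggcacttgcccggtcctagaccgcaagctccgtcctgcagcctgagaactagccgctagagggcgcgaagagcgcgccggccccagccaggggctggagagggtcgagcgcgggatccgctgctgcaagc
Itgb1, chr8:128685404-128685653, plus strand: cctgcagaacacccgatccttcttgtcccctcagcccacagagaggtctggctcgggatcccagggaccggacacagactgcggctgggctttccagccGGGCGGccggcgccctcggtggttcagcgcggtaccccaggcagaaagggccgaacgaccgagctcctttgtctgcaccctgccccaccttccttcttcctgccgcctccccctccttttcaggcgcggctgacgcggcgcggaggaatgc
Itgb5, chr16:33829415-33829664, plus strand: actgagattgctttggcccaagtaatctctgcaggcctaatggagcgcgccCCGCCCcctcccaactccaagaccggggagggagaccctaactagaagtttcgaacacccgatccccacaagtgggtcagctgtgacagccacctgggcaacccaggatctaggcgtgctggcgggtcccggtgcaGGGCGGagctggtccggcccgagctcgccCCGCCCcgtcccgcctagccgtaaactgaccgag
A GC box, the sequence bound by Sp1-type factors, was found 1 time each for Itga4 and Itgb1, 3 times for Itgb5 and 0 times for Itga8. Of all 32851 promoter windows of this length, 32.7% held at least 1. Neither the CCAAT box (CCAAT, in 33.8% of windows) nor the TATA box (TATAAA, in 12.4%), searched on both strands, was found in any of the 4. The share of G and C was 64.0%, 56.4%, 68.0% and 65.2% for Itga4, Itga8, Itgb1 and Itgb5, against a median of 52.4% over all windows. A match is no more than a match of letters. Promoters of 7 of the 10 integrins were in the table.

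Between EphB4 Mutant and wild-type hearts no integrin passed the test. Xist was low in mutants 1 and 3 and in no wild-type heart, so its level was not balanced over the genotypes. With the Xist level as a covariate, again no integrin passed, and the Itga4 difference was -0.42. Itga9 had the widest gap, 8.27 ± 0.56 in mutant and 7.45 ± 0.84 in wild-type hearts (SD, n = 3 each), and within the eI hearts its difference was 0.01. Of the 10 integrins, 4 had a positive and 6 a negative difference, with a median of -0.06, against 0.00 over all genes tested. In limma 0 of 13572 genes were called (0% of genes, 127 at an unadjusted p of 0.05), and each integrin had an adjusted p = 0.9997. With the letters as a block the count was also 0 (416 at an unadjusted p of 0.05). No integrin had genotypes without overlap at its brightest probe set, where 4.39% of all genes had none in either direction and 2.14% lay higher in mutants.

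Itga4 read 8.81 ± 1.22 in mutant and 8.53 ± 0.92 in wild-type hearts (SD, n = 3 each), a difference of 0.28 log2. Its 95% confidence interval was -1.37 to 1.92, and with the letters as a block -0.06 to 0.61. Within eM the mutant heart read 0.62 higher and within eI the mutants averaged 0.10 higher. Values of the genotypes overlapped, and each SD holds the gap between eM and eI hearts.

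For the beta chains, the means of mutant and wild-type hearts lay close. Without a block, the 95% confidence intervals in limma were -0.72 to 0.59 for Itgb1, -0.89 to 0.52 for Itgb5 and -0.57 to 0.18 for Itgb3. Itgb1 read 10.70 ± 0.43 in mutant and 10.77 ± 0.40 in wild-type hearts, a difference of -0.07 with an interval of -0.25 to 0.12 once the letters were a block. Itgb5 read 10.25 ± 0.57 and 10.43 ± 0.29 in mutant and wild-type hearts, and the difference of -0.18 was -0.50 within eM and -0.03 within eI. Itgb3 read 7.69 ± 0.28 in mutant and 7.89 ± 0.11 in wild-type hearts, and its difference of -0.19 was -0.23 within eM and -0.18 within eI. That no difference passed does not show that the genotypes are alike.

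At their brightest probe sets, the other alpha chains differed by 0.02 (Itga5), -0.06 (Itga6), -0.20 (Itga7), 0.14 (Itga8) and -0.09 (Itgav). The dimmer Itga6 probe set, also tested, differed by -0.47 with overlap between the genotypes. Its difference was -0.73 within eI, where mutants read 9.01 and 8.87 and wild types 9.54 and 9.81, and 0.05 within eM. At the brightest probe sets, the 95% confidence intervals in limma were -0.26 to 0.29 for Itga5 and -0.33 to 0.21 for Itga6. They were -0.63 to 0.24 for Itga7, -0.84 to 1.12 for Itga8 and -0.33 to 0.15 for Itgav. For Itga8 the difference was -0.19 within eM and 0.30 within eI. At the brightest probe set, the difference had the same sign in eI and eM hearts for 8 of the 10, Itga5 and Itga8 being the exceptions. Some of these values lay near 0 (Itga9 0.01 within eI, Itga6 -0.01 within eM), and eM holds 1 heart per genotype. The share over all genes was not counted, so nothing is read from this count.

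At the level of probe sets, 1 of 23 tested integrin probe sets was higher and 1 lower in mutant hearts without overlap, where 4.67% of all tested probe sets had no overlap in either direction. Both belong to Itga5 and go opposite ways. The second brightest read 5.97, 5.83 and 5.95 in the 3 mutants, against 5.50, 5.51 and 5.60 in the 3 wild-type hearts, a difference of 0.38. The third brightest read 5.51, 5.54 and 5.42 in mutants, against 5.57, 5.61 and 5.54 in wild-type hearts, a difference of -0.09. The brightest Itga5 probe set, at 7.93 ± 0.15 and 7.92 ± 0.12 in mutant and wild-type hearts (SD, n = 3 each), overlapped.

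**Figure D3:**
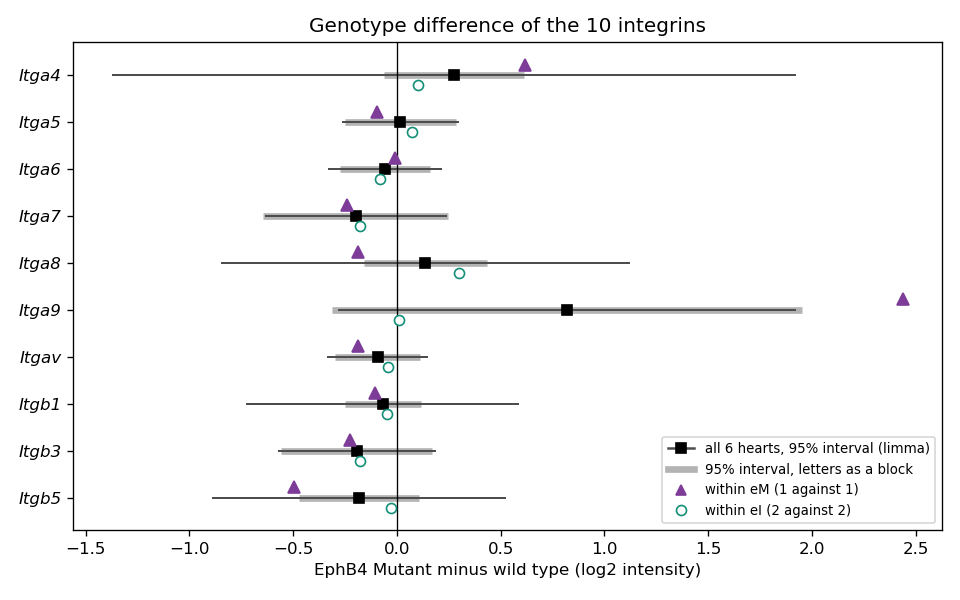
EphB4 Mutant minus wild-type difference in log2 intensity for each integrin at its brightest probe set: squares and thin lines are the value and 95% confidence interval from limma over 6 hearts, grey bars the interval with the letters as a block, triangles the difference within eM (1 heart against 1) and circles that within eI (2 against 2). All 10 intervals include 0, and the Itga9 triangle stands at 2.44.

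Other integrin chains, which the list leaves out, were counted whole. Of 17 named, 15 had a probe set and 12 were tested; 0 were called higher and 1 lower in eM hearts, where 4.47% and 5.82% of all genes were, with a median of -0.17 against -0.03 over all genes. The 1 called was Itgb2, the beta 2 chain of leukocytes, at 5.04 and 5.34 in eM hearts, against 5.40 to 5.89 in eI hearts (-0.44, limma adjusted p = 0.037). The leukocyte chain Itgal differed by -0.44 and Itgb7, the other partner of alpha 4, by -0.37 without passing. Itgb8, a partner of alpha v, differed by 0.68 and Itga3, a laminin receptor chain, by 0.31, also without passing. The platelet chain Itga2b, partner of beta 3, differed by -0.21 (8.02 and 8.14 in eM hearts, 8.15 to 8.49 in eI hearts). By genotype 0 were called, with Itgb2 at -0.33, Itgb8 at 0.30, Itga1 at -0.26 (8.93 to 9.03 in mutants, 9.09 to 9.41 in wild-type hearts), Itgb7 at -0.23 and Itga3 at 0.22.

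Ligands showed 2 of 17 tested genes called higher and 0 lower in eM hearts, where 4.47% and 5.82% of all genes were, with a median of 0.15. Fn1, the gene of fibronectin, read 13.19 and 13.22 in eM hearts, against 12.41 to 12.76 in eI hearts (0.56, limma adjusted p = 0.042). Lama1, the laminin alpha 1 chain, read 7.31 and 6.99 against 6.09 to 6.85 (0.70, adjusted p = 0.036). Vcam1, the cell-bound ligand of alpha 4, read 10.45 and 10.02 in eM hearts, against 9.65 to 9.97 in eI hearts, a difference of 0.41 that did not pass. Tnc, the gene of tenascin-C, differed by 1.29 but overlapped, since wild-type 3 read 9.02 and mutant 3 only 7.54. The elastic fibre protein gene Emilin1 differed by -0.53 and Lama3 by -0.49. By genotype 0 were called; Lama1 differed by 0.38, Lama2 by -0.20, Lama3 by -0.19, Emilin1 by -0.18, Tnc by -0.16, Fn1 by 0.08 and Vcam1 by -0.01.

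Inside the cell, integrin tails bind the proteins of the adhesion complex. Of 25 tested, 1 was called higher and 1 lower in eM hearts, with a median of 0.06; over all genes 10.3% were called in either direction. Tln2, a talin that joins beta tails to actin, read 9.89 and 9.90 in eM hearts, against 9.42 to 9.58 in eI hearts (0.40, limma adjusted p = 0.038). Pxn, the adaptor paxillin, which binds the alpha 4 tail, read 10.22 and 10.52 against 10.78 to 11.04 (-0.52, adjusted p = 0.041). Tns3, a tensin, differed by -0.54, Fermt3, the kindlin of blood cells, by -0.48 and Parvb, a parvin, by 0.42, none called. Itgb1bp2 encodes melusin, a muscle protein that binds the beta 1 tail. It read 10.31, 10.44 and 10.15 in mutants, against 10.55, 10.58 and 10.62 in wild-type hearts, a difference of -0.29 without overlap, where 4.39% of all genes had none; it did not pass. Fermt3 (0.13), Tns3 (-0.13), Pxn (-0.12) and Parvb (0.12) followed it by size between the genotypes.

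Membrane proteins that associate with integrins, chiefly tetraspanins, read lower in eM hearts at all 7 tested genes, with a median of -0.42, and 3 of the 7 were called lower and 0 higher. Over all genes 5.82% were called lower and 4.47% higher, and 7485 of 13572 had a negative difference. Cd9 read 9.52 and 9.73 in eM hearts, against 9.99 to 10.14 in eI hearts (-0.45, limma adjusted p = 0.038). Cd81 differed by -0.42 and Bsg, the gene of basigin, by -0.46, both called. Cd82 (-0.78) and Slc3a2 (-0.33) did not pass. By genotype the 7 lay between -0.10 and 0.09, and 0 were called. All these partner lists were written with earlier results of the arrays known.

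**Figure D4:**
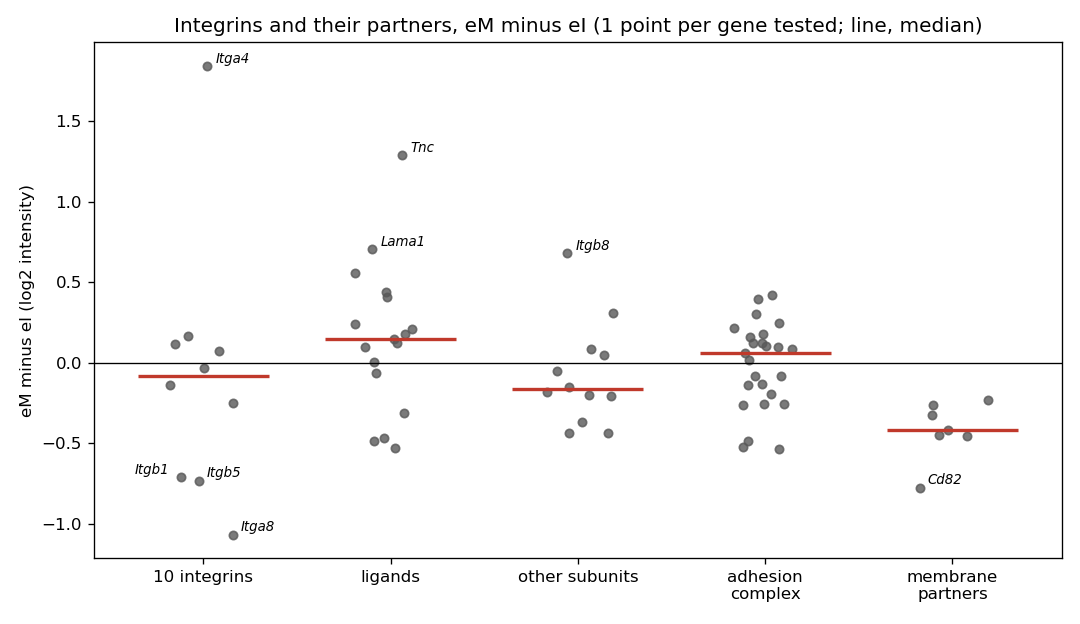
Difference eM minus eI in log2 intensity for the 10 integrins, 17 ligands, 12 other integrin chains, 25 adhesion complex genes and 7 membrane partners that were tested; each point is 1 gene and each line the median of its list, and genes past 0.6 in either direction are named. Itga4 is the highest point at 1.84 and Itga8 the lowest at -1.07, and all 7 membrane partners lie below 0.

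Markers of other cell types moved with the letters, and their part in the integrin differences was not tested. Over all genes tested, 5.82% were called lower and 4.47% higher in eM hearts. As the mean log2 level of a list, fibroblast and mesenchyme markers (7 genes) read 9.18 and 10.17 in eM hearts, against 10.67 to 11.22 in eI hearts, and 2 of 7 were called lower. Macrophage markers (6 genes) read 6.35 and 6.44 against 7.08 to 7.37, with 2 of 5 tested called lower. Megakaryocyte and platelet markers read 7.09 and 7.27 against 7.68 to 8.12, with 1 of 6 lower. Erythroid markers read 10.32 and 10.38 against 10.92 to 11.79, with 2 of 4 lower. Endothelial markers read 9.39 and 9.49 against 9.60 to 9.66, with 1 of 6 called lower, Emcn (-1.18). The other endothelial markers went both ways without passing, from Tek (-0.38) and Cdh5 (-0.24) to Kdr (0.28) and Pecam1 (0.41). Liver and endoderm markers read 5.33 and 5.54 against 6.66 to 8.39, with 1 of 6 lower.

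As a mean level, cardiomyocyte markers read 14.13 and 14.18 in eM hearts, against 13.83 to 13.92 in eI hearts, with 2 of 7 called higher. The 2 were Ttn (1.64) and Myh6 (0.67), and the median difference of the 7 was -0.04. Tnnt2 (-0.19) and Nppa (-0.25) lay lower without overlap but did not pass. Myh7 (-0.04), Actc1 (0.05) and Myl2 (-0.06) overlapped. Smooth muscle and pericyte markers averaged 10.12 and 10.21 against 9.70 to 9.89, with 2 of 6 called higher, where 4.47% of all genes were. The 2 were Tagln (1.19) and Rgs5 (1.21). Acta2 (0.38) lay higher and Pdgfrb (-0.59) lower without overlap, neither passing, and Myh11 (0.01) and Cnn1 (-0.04) overlapped. Epicardial markers, of the layer in which alpha 4 is known to act, overlapped at 8.65 and 8.77 against 8.44 to 8.93. Of the 7, Wt1 (0.94) and Tbx18 (0.69) were called higher and Msln (-0.67) lower in eM hearts (limma). Aldh1a2 (-0.82) lay lower without overlap but did not pass, and Upk3b (0.00), Bnc1 (0.04) and Tcf21 (-0.04) overlapped. The median difference of the epicardial list was 0.00. Of 5 neural crest and Schwann cell markers only 2 had a probe set, and these overlapped. Between genotypes all 10 marker lists overlapped in their mean level and 0 genes were called. All 7 epicardial markers had a positive mutant minus wild-type difference, with a median of 0.34, where 6934 of 13572 genes were positive. Within eM, 1 heart against 1, the signs were mixed. Wt1 (0.29), Tbx18 (0.06) and Bnc1 (0.15) read higher in the mutant there, and Upk3b (-0.24), Tcf21 (-0.21), Aldh1a2 (-0.77) and Msln (-0.06) lower. The liver markers had a median of -0.73.

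The genes whose pattern over the 6 hearts was most like that of Itga4 were Tnpo1, Rnf220, Akap2, Baz2a and Dcp2, with Pearson's r from 0.996 to 0.998. For Itgb1 they were Sdf4, Kyat3, Cuedc2, Klhl8 and Emc7, with r from 0.995 to 0.999. These r values share the arrays and are set by the gap between the 2 eM and the 4 eI hearts: 7.8% of the 13571 genes compared had r above 0.9 with Itga4, and 8.2% with Itgb1.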

How the data were processed

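RNA of 6 mouse hearts, 3 EphB4 Mutant and 3 wild type, was hybridised to Affymetrix arrays. Each deposited value is a log2 intensity from RMA, the robust multi-array average, run by the authors; per the submitters' processing notes RMA is named without a version or settings. Signal over background cannot be read from such values.

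Of 45101 probe sets, 64 controls were left out. The platform annotation named 1 gene for 34945, and 0 symbols changed against RefSeq (GRCm38.p6). The dimmest 40% by mean (under 5.38) were dropped, leaving 27022 probe sets. Each gene took the one with the highest mean, for 13572 genes in the tests. Of 34 integrin probe sets, 23 passed, and each of the 10 genes was tested.

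The genotype test used lmFit and eBayes (limma 3.58.1, R 4.3.3; two-sided, Benjamini-Hochberg over all genes, threshold 0.05) without covariates. Letters were compared with genotype in the fit. The fit was tested on simulated data. For the genotype test these held no gap between eM and eI hearts, so they do not show how that test performs with the gap. The number of arrays limits the precision. Groups come from the titles and letters from the descriptions. Members and lists were chosen with earlier results of these data known. Genes named were the 10 integrins, up to 5 per partner list and contrast by absolute difference, and Fn1, Vcam1, Itgb1bp2, Itga2b and Itgb2. From the marker lists the text names all cardiomyocyte, epicardial, and smooth muscle and pericyte markers. It also names 5 endothelial genes, chosen after their values were seen.

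Replicate numbers come from the titles. Deviations from the group means correlated at 0.18, 0.36 and 0.74 between same-numbered hearts of both genotypes. Mutant 1 with wild-type 2 (0.47) and mutant 2 with wild-type 1 (0.49) correlated more than the same-numbered eI hearts. The hearts numbered 3 are also the 2 eM hearts. These values do not show that the numbers pair the hearts. The main tests took no pairing, and a replicate block entered only as an alternative. Alternatives were other filters, normalizations, probe set choices, array weights, eBayes with trend and robust, blocks, an Xist covariate, no genotype term, the eI hearts alone and leaving out each heart. Plots were made in Python 3.11.15 (matplotlib 3.10.9).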

Additional observations from a re-analysis of the deposited data

Results flagged for a closer look

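Among the 4 eI hearts, 3 of the 34 integrin probe sets had a heart far from the others by Dixon's gap over range; chance flags about 1 in 20 groups. The dimmest Itga9 probe set read 5.92 in wild-type 2, against 6.17 to 6.19 in the other eI hearts. The third brightest Itgb1 probe set read 7.43 in wild-type 1, against 7.64 to 7.68. Another of Itgb1, the fifth by brightness and left out of the tests, read 3.01 in wild-type 2, against 3.48 to 3.54.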

How the results depend on the processing

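Over all alternatives that gave a value, 299 integrin differences moved by less than the spread between hearts and 9 by more. For the genotype difference that spread holds the gap between eM and eI hearts, so a move counted as small can change the sign. For the letters it holds the gap between the 2 eM hearts, 2.44 for Itga9. The Itga9 moves by letters to 0.97 and to -1.46 were therefore also counted as small. The genotype difference changed sign for Itga4, Itga5, Itga6, Itga8, Itgb1 and Itgb5. By letters it changed sign for Itga5, Itga7 and Itga9 (-1.46 to 0.97 for Itga9), and for none of the 4 called. The 4 called by letters ran from 1.36 to 2.10 for Itga4, -1.31 to -0.83 for Itga8, -0.75 to -0.57 for Itgb1 and -0.97 to -0.50 for Itgb5. The count of genes called between eM and eI hearts, 1397, was 878 without a filter and 183 with the Xist level as a covariate. It was 575 with replicate number 3 set against numbers 1 and 2, which is the same comparison. The cause was not tested. Leaving out each heart gave 0 to 1937 genes there. Between the genotypes the count was 0 under every alternative, the replicate block included, except without mutant 2; leaving out each heart gave 0 to 2 genes, the 2 being Eif2s3y (5.87) and Xist (-5.11), both linked to sex. The stricter filter left out Itga7, which then has no value. By design the replicate block leaves the genotype difference of each integrin as it was (Itga4 0.28). The interaction called 0 genes under 5 alternatives chosen after seeing the data. The Itga4 genotype difference ran from -0.43 to 0.80 when each heart was left out, and was -0.42 with the Xist level as a covariate and -0.20 with array weights, never called. With the mean of a gene's tested probe sets Itga6 was also called by letters (0.60, limma adjusted p = 0.034). With the eI hearts alone, Itga9 differed by 0.01 between genotypes.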
